A study of Mus musculus with 2 samples.

Results

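In a droplet snRNA-seq library of the E14 mouse brain, 208 of 9037 nuclei were selected on counts of the transcription factor Lhx6 and of GABAergic genes, and they are described here as Lhx6 GABAergic nuclei. A nucleus was taken when it held at least 1500 UMIs (unique molecular identifiers, each standing for 1 captured RNA molecule), under 5% UMIs from mitochondrial genes, at least 2 UMIs of Lhx6, none of Lhx8 and at least 1 UMI over Gad1, Gad2 and Dlx6os1 together. The library came from Slide-tags, a method in which nuclei of a frozen section take up spatial barcodes from a bead array before droplet sequencing. It was made from a sagittal brain section of 1 C57BL/6J embryo that had been snap-frozen whole, and no treatment or altered allele is named for it. The series holds 1 further library, from the hippocampus of an adult male C57BL/6J mouse, and both libraries together hold 10698 nuclei. With 1 library for each tissue there was no biological replicate, so no test between conditions was possible, and all intervals below are 95% intervals that cover counting error alone. Positions of nuclei in the section were not analysed here, so the data give no measurement of migration.

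Lhx6 encodes a LIM-homeodomain factor that acts downstream of Nkx2-1 in the medial ganglionic eminence (MGE), the embryonic source of most cortical somatostatin and parvalbumin interneurons. Newly born MGE interneurons leave the ventral forebrain and migrate tangentially into the cortex, striatum and hippocampus, guided by the chemokine Cxcl12 through its receptors Cxcr4 and Ackr3 and by neuregulins through the receptor Erbb4. Lhx8, a close relative, marks the MGE-derived cholinergic and pallidal lineages, which is why nuclei with Lhx8 were kept apart. Of the genes that name such cells (Lhx6, Dlx6os1, Ackr3 and Gad1), only Ackr3 had no part in the selection.

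The regions upstream of Lhx6 and Ackr3, the gene of the selection and the named marker outside it, are shown so that both loci can be placed; the library measured RNA and not these regions. Lhx6 (ENSMUSG00000026890) lies on the minus strand at chr2:36081953-36105408 and Ackr3 (ENSMUSG00000044337) on the plus strand at chr1:90203980-90216751 (GRCm38). Each line gives 250 bases before an annotated RefSeq start, 5′ to 3′ (GRCm38.p6), at chr2:36104061-36104310 on the minus strand for Lhx6 and at chr1:90203730-90203979 on the plus strand for Ackr3. Capitals mark TAAT, the core bound by many homeodomain proteins, on either strand (ATTA on the strand shown).
Lhx6: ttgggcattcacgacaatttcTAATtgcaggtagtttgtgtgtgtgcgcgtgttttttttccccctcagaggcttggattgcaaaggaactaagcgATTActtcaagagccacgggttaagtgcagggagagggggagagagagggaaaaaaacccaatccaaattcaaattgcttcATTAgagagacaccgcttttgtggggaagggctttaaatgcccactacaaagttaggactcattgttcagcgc
Ackr3: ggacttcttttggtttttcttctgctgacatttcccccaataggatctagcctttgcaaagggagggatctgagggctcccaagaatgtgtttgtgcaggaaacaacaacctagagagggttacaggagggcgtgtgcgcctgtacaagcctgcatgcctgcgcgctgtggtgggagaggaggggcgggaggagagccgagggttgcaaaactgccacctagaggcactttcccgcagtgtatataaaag
The Lhx6 window held 3 such cores and the Ackr3 window 0, and windows before the 2 other annotated Lhx6 starts held 0. The core was present in 54.9% of 32851 windows of the same length, so its presence in a window is common.

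The selection passed through few steps. Of 9037 nuclei, 7531 held at least 1500 UMIs, and none of these reached 5% mitochondrial UMIs. Among them 380 had at least 2 Lhx6 UMIs, 214 of these had no Lhx8, and 208 also had a GABAergic UMI. Lhx6 counts chose the nuclei, so they are given as a description: 117 nuclei had 2 UMIs, 46 had 3 and 45 had 4 or more, with a highest count of 12. Gad1, which encodes a GABA-synthesising enzyme, ranged from 0 to 29 UMIs with a median of 3 and was seen in 177 of the 208 nuclei. Gad2, its second form, ranged from 0 to 42 with a median of 4, and Dlx6os1, a long non-coding RNA of the Dlx5/6 locus, from 0 to 136 with a median of 10.5. Just outside the selection were 252 GABAergic nuclei with 1 Lhx6 UMI and no Lhx8, and 164 with at least 2 Lhx6 UMIs and at least 1 Lhx8 UMI.

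Depth varied widely among the selected nuclei, from 1523 to 113181 UMIs with a median of 7849.5. The 4081 other nuclei with at least 1500 UMIs and a GABAergic UMI, the main comparison group, had a median of 5879 UMIs, and 574 of them had an Lhx6 UMI. They are called other GABAergic nuclei for that UMI alone. A UMI of Gad2 was seen in 47.8% of all 7531 nuclei, so this group is broad and also takes in other cell types. Within that group, 1396 nuclei with at least 2 UMIs of Dlx genes, a UMI of Gad1 or Gad2 and neither Lhx6 nor Lhx8 formed a closer comparison, with a median of 6460.5 UMIs; they are called Dlx nuclei below. The selected share differed with depth, as it can where a fixed count is asked of nuclei of unequal depth. It was 1.91% (95% binomial interval 1.34 to 2.64, Clopper-Pearson) in the 1883 shallowest nuclei, 1.43% and 2.28% in the next groups of that size, and 5.42% (4.44 to 6.54) in the 1882 deepest. When every nucleus was first thinned at random to 1500 UMIs, 50 nuclei met the same criteria, and 41 of them were among the 208.

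Under 1 in 2 of the selected nuclei fell together in an unsupervised clustering of the library. The clustering used the genes of the selection too, so it is no independent check of the label of migrating interneurons. The 208 nuclei fell into 20 of 22 clusters. The largest number, 91 (43.8%, interval 36.9 to 50.8), lay in a cluster of 456 nuclei led by Lhx6, Dlx6os1, Erbb4, Ackr3 and Sox6, called the Lhx6-led cluster below. A further 25 lay in a cluster led by radial glial genes such as Fgfr3, Bcan and Creb5, and 20 in one led by Sox1ot with the cycling genes Mki67 and Top2a. Smaller numbers lay in clusters led by Lhx8 and Gbx1 (10 nuclei), by the cortical glutamatergic genes Neurod6 and Neurod2 (8), by the meningeal genes Col3a1 and Col1a2 (8), by the choroid plexus genes Ttr and Folr1 (5) and by the macrophage genes Mrc1 and Csf1r (5). Lhx6 is not known as a gene of these last 4 cell types.

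**Figure D1:**
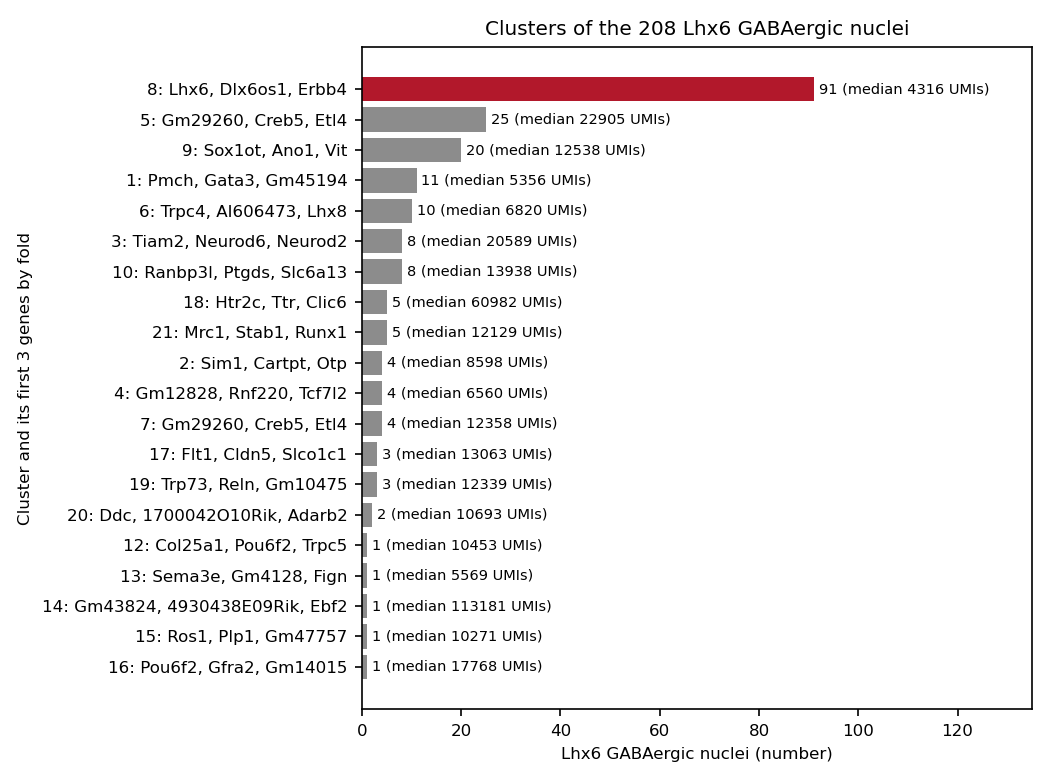
Number of Lhx6 GABAergic nuclei in each cluster of the E14 library (horizontal axis), with each cluster's first 3 genes by fold and the median UMIs of its Lhx6 GABAergic nuclei. The Lhx6-led cluster (red) held 91 nuclei with a median of 4316 UMIs, and the other 117 nuclei were spread over 19 clusters.

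Selected nuclei outside the Lhx6-led cluster were deep, with a median of 12893 UMIs against 4316 inside it, and they gave most of the UMIs in any sum: the 91 nuclei of the Lhx6-led cluster held 19.1% of the 2866120 UMIs. The doublet caller Scrublet, set to mark the expected number of nuclei by score, marked 29 of the 117 nuclei outside (24.8%, interval 17.3 to 33.6) and 4 of the 91 inside (4.4%, 1.21 to 10.9). The mark was carried by 10.8% of the other GABAergic nuclei. Values are therefore given for all 208 nuclei and, where they differ, for those inside and outside the Lhx6-led cluster. The clusters were built on the same genes, so levels within them are descriptions.

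RNA of other cell types was seen throughout the library. Ttr, a secreted protein gene of the choroid plexus, gave a UMI in 82.2% of the selected nuclei and in 81.3% of the other GABAergic nuclei, and in 38.9% and 40.8% after thinning to 1500 UMIs. Among 454 nuclei with at least 3 UMIs of meningeal genes, a cell type not known for Lhx6, with a median of 7562 UMIs, 42 had at least 2 Lhx6 UMIs (9.25%, interval 6.75 to 12.3). The share over all 7531 nuclei was 5.05%, at a median of 4979 UMIs. The 250 of these meningeal nuclei with no GABAergic UMI, a condition that itself leaves out nuclei with interneuron RNA, had a median of 4346 UMIs, and 2 of them had an Lhx6 UMI (0.8%, 0.097 to 2.86).

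Across 7832 genes with a mean level of at least 20 CPM (UMIs of a gene per 1000000 UMIs, summed over nuclei), the selected nuclei were close to the other GABAergic nuclei. The median ratio of levels was 1.006, and the central 90% of genes lay between 0.731 and 1.34. At least 2-fold higher levels were seen for 65 genes (0.83% of those compared), and at least 2-fold lower levels for 17 (0.217%). Against the Dlx nuclei, 79 of 7800 genes were at least 2-fold higher (1.01%) and 22 at least 2-fold lower (0.282%). Lhx6, Dlx6os1 and Lhx8 are among these genes and were used in the selection. Over the same 7832 genes, the 91 nuclei of the Lhx6-led cluster had 177 genes at least 2-fold higher (2.26%) and 864 at least 2-fold lower (11.0%), and the 117 nuclei outside it had 54 (0.689%) and 7 (0.0894%). The counting interval of the ratio lay above 1 for 16.1% of the genes and below 1 for 15.8% in the whole set, and it clears 1 more readily in deeply counted genes.

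**Figure D2:**
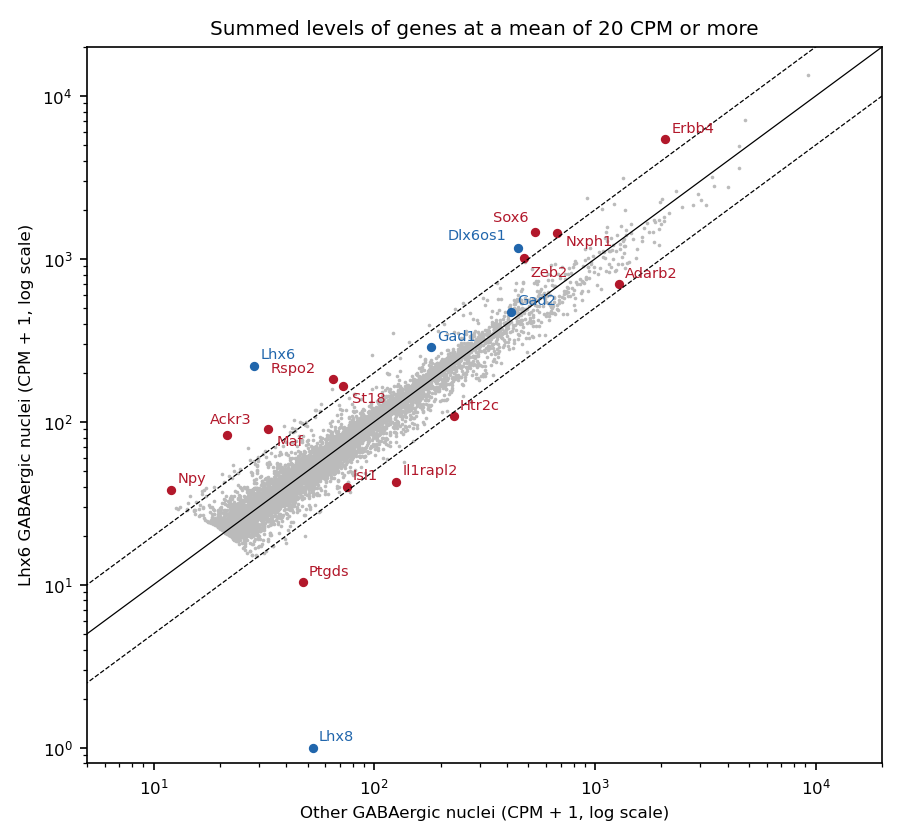
Summed level of each of 7832 genes in the 208 Lhx6 GABAergic nuclei (vertical axis) and in the 4081 other GABAergic nuclei (horizontal axis), in CPM plus 1 on log scales. Blue marks genes used in the selection, red marks other named genes, and dashed lines mark a 2-fold difference; Ackr3, Npy, Sox6, Maf and Erbb4 lie above the upper line.

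Ackr3, the atypical chemokine receptor that binds Cxcl12 and keeps its sister receptor Cxcr4 responsive in migrating interneurons, was the naming marker that the selection did not use, and it was higher in the selected nuclei. It was named with earlier results of these data known, so its level is a description and no check of the label. It gave 236 UMIs in 97 of the 208 nuclei, with 0 in the median nucleus and 19 in the highest. Its level was 82.3 CPM (interval 72.2 to 93.5) against 20.5 in the other GABAergic nuclei and 19.3 in the Dlx nuclei, ratios of 4.03 (3.46 to 4.66) and 4.26. Inside the Lhx6-led cluster the level was 219 CPM and outside it 50.0, which was still 2.45 times that of the other GABAergic nuclei. An Ackr3 UMI was seen in 46.6% of the selected nuclei and 11.3% of the other GABAergic nuclei. After thinning to 1500 UMIs the shares were 17.8% (12.8 to 23.7) and 2.99% (2.49 to 3.56), whose intervals did not overlap, and 2.80% over all 7531 nuclei.

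The rest of the chemokine system was sparse. Cxcr4 gave 26 UMIs in 22 nuclei, 9.07 CPM against 4.41, a ratio of 2.06 (1.31 to 3.13) that rested on few counts and was 1.83 without the nucleus with most UMIs. Cxcl12, the ligand, gave 54 UMIs in 18 nuclei, none of them in the Lhx6-led cluster, where 3 UMIs would be 5.48 CPM. Of the 6 genes of this group only Ackr3 reached a mean of 20 CPM.

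Transcription factors of the MGE lineage were higher as a group. Of 12 in the list, 9 were expressed at a mean of at least 20 CPM; 4 of the 9 were at least 2-fold higher than in the other GABAergic nuclei (Sox6, Maf, St18 and Zeb2), and all 9 had a ratio interval above 1, with a median ratio of 1.98. All 9 were at least 2-fold higher inside the Lhx6-led cluster, with a median of 4.18, and outside it Maf alone was (ratio 2.36), with a median of 1.597. Against the Dlx nuclei 6 of the 9 were at least 2-fold higher, Nkx2-1 and Etv1 in addition, with a median ratio of 2.28. Over all genes compared, 0.83% were at least 2-fold higher than in the other GABAergic nuclei, and the interval lay above 1 for 16.1%. Against the Dlx nuclei 1.01% of all genes were at least 2-fold higher. The median ratios of all genes were 1.006 against the other GABAergic nuclei and 1.005 against the Dlx nuclei. Inside the Lhx6-led cluster 2.26% of all genes were at least 2-fold higher, with a median ratio of 0.938. Outside it the share was 0.689% and the median 1.015. A second close group, 403 GABAergic nuclei with at least 2 Lhx8 UMIs, lay within the main comparison group. After thinning to 1500 UMIs, Nkx2-1 gave a UMI in 8.93% of them and 7.21% of the selected nuclei. Sox6 gave one in 40.2% and 77.9%, St18 in 14.1% and 22.6%, and Maf in 3.72% and 13.5%. With any Lhx8 count let in, the ratios of Nkx2-1 and Etv1 were 2.21 and 2.62, and those of Sox6 and Maf 2.51 and 1.84.

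Sox6, which acts downstream of Lhx6 in the positioning and maturation of MGE interneurons, was seen in 185 of the 208 nuclei, with up to 155 UMIs in 1 nucleus. Its level was 1462 CPM against 532, a ratio of 2.75 (2.66 to 2.84), and it was 3396 CPM inside the Lhx6-led cluster and 1005 outside. Gm45025, annotated on the opposite strand within Sox6, had a ratio of 2.64, and whether the counting used the strand of the read is not given in the sources used here, so the 2 genes may share reads. Maf, a factor that favours the somatostatin fate, gave 255 UMIs in 77 nuclei and 89.0 CPM against 32.0, a ratio of 2.78 (2.42 to 3.19). St18, a zinc finger gene known from MGE-derived projection neurons, had 164 CPM against 71.5, a ratio of 2.29 (2.07 to 2.53). Zeb2, which directs interneurons away from a striatal course, had 1012 CPM against 476, a ratio of 2.13 (2.04 to 2.21).

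Satb1, an activity-linked factor of somatostatin interneurons, had a ratio of 1.83 (1.63 to 2.04), which was 2.79 inside the Lhx6-led cluster, 1.597 outside it, 2.36 after thinning and 2.60 as a mean over nuclei. Nkx2-1, which specifies the MGE and is switched off in cells bound for the cortex, was seen in 60 nuclei at 39.1 CPM against 24.8, a ratio of 1.58 (1.28 to 1.92). Its ratio to the Dlx nuclei was 2.78, while the neighbouring transcript Sfta3-ps stood at 3.83. Among the Dlx genes, which switch on the GABA-synthesising enzymes, Dlx6 had a ratio of 2.12 and Dlx1 of 1.85 to the other GABAergic nuclei; against the Dlx nuclei, which were themselves chosen on these genes, none of 5 reached 2-fold. Dlx6 overlaps Dlx6os1 on the opposite strand, so its reads may not be separable from those of a gene used in the selection.

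**Figure D3:**
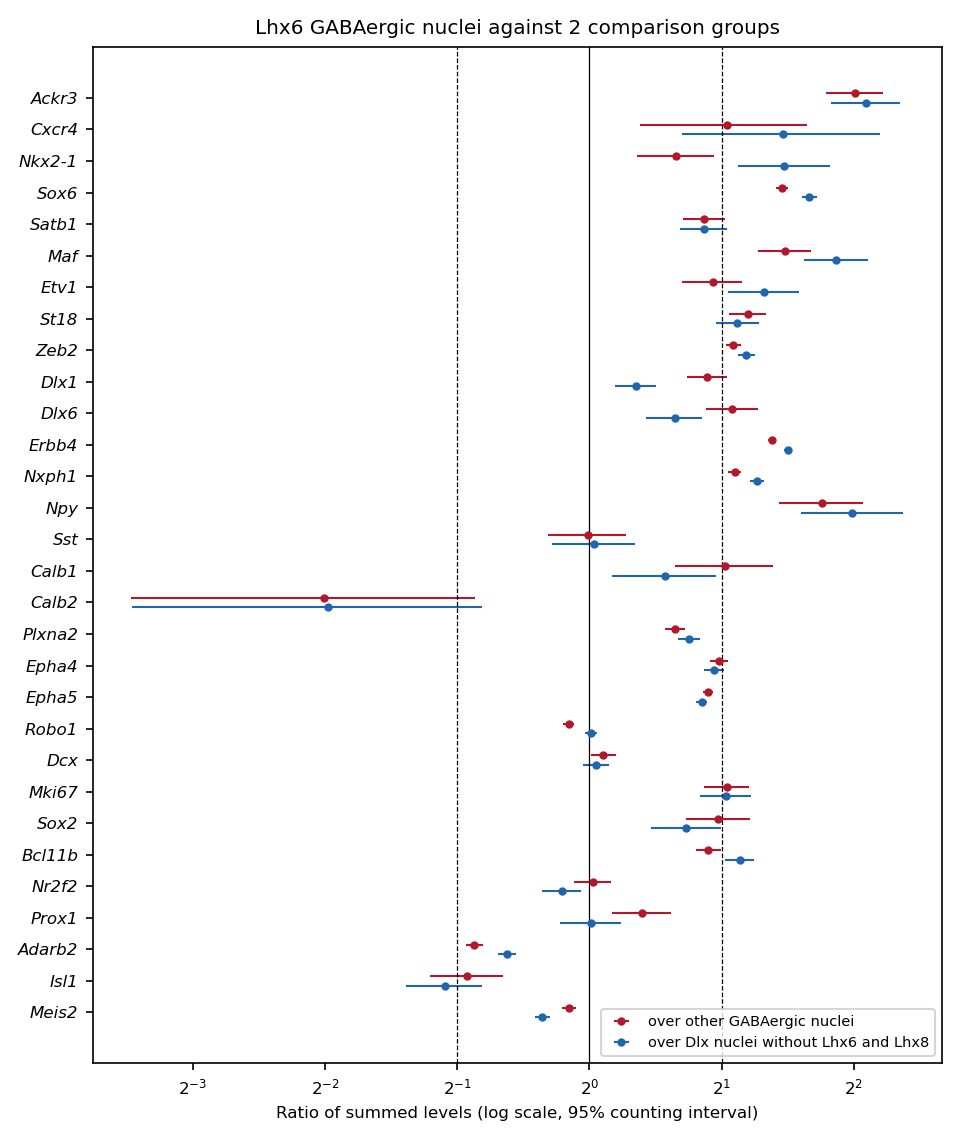
Ratio of the summed level in Lhx6 GABAergic nuclei to that in other GABAergic nuclei (red) and in Dlx nuclei without Lhx6 and Lhx8 (blue), on a log scale with 95% counting intervals; dashed lines mark 2-fold. Ackr3 has the highest ratio to the other GABAergic nuclei among the genes drawn, Sst lies at 1, and Calb2, Adarb2 and Isl1 lie below 1.

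Factors of the caudal and lateral ganglionic eminences, which give rise to other interneurons and to striatal and olfactory neurons, were mixed. None of 9 expressed at the minimum was past 2-fold in either direction against the other GABAergic nuclei, and the median ratio was 1.19. Inside the Lhx6-led cluster Sp9 (3.27) and Etv1 (3.42) were at least 2-fold higher, and Adarb2 (0.426), Tshz1 (0.429) and Pax6 (0.432) at least 2-fold lower. Outside it none of the 9 was past 2-fold. Over all genes compared inside the cluster, 2.26% were at least 2-fold higher and 11.0% lower. Etv1 is in both lists and was also counted among the MGE factors. Against the Dlx nuclei Etv1 alone of the 9 was past 2-fold, and the median ratio was 1.01. Nr2f2, a caudal factor, had a ratio of 1.02 (0.922 to 1.12) and Prox1, another, of 1.32 (1.13 to 1.53). Adarb2, a marker of caudally derived interneurons, was lower at 703 CPM against 1285, a ratio of 0.547, with 1 nucleus holding 148 of its 2015 UMIs; the ratio was 1.25 when nuclei with Lhx8 were let in. Isl1, which marks striatal projection and cholinergic neurons, was lower at 39.1 CPM against 74.1, a ratio of 0.527, and 0.469 to the Dlx nuclei, although 1 nucleus held 34 of its 112 UMIs. Bcl11b, known from striatal projection neurons and also expressed by interneurons, was higher at 360 CPM against 193, a ratio of 1.86.

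Erbb4, the neuregulin receptor of migrating interneurons, was seen in 193 of the 208 nuclei. Its level was 5424 CPM against 2088, a ratio of 2.60 (2.55 to 2.64), and it reached 13742 CPM inside the Lhx6-led cluster against 3460 outside. Its ligands were not higher by 2-fold: Nrg1 had a ratio of 1.09 and Nrg3 of 0.675. Of the 8 genes expressed at the minimum in this growth factor group Erbb4 alone was past 2-fold, and the median ratio was 0.834. In the 91 nuclei of the Lhx6-led cluster 5 of the 8 were at least 2-fold lower, Nrg3 (0.396) among them, and the median was 0.486, against 0.956 outside. The share of all genes at least 2-fold lower inside the cluster was 11.0%.

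Guidance genes differed by less than 2-fold over the whole set. Some were past 2-fold inside the Lhx6-led cluster, where genes in general were spread more widely. Of 16 receptors, 6 had a ratio interval above 1 and 7 below 1, with a median ratio of 0.937, and none was past 2-fold. The highest was Epha4, a receptor for ephrins that keep interneurons out of the striatum and ventricular zone, at 707 CPM against 359 (ratio 1.97, 1.88 to 2.06), followed by Epha5 (1.86) and Epha3 (1.62). Plxna2, a semaphorin co-receptor, stood at 1.57 and Plxna4 at 1.33. The Slit receptor Robo1 (0.898), the netrin receptor Unc5c (0.742) and the semaphorin receptors Nrp1 (0.878) and Nrp2 (0.840) were lower. Among 12 ligands 2 had an interval above 1 and 6 below, with a median ratio of 0.898. Over all genes compared the interval lay above 1 for 16.1% and below 1 for 15.8%, with a median ratio of 1.006. Inside the Lhx6-led cluster Epha4 (3.68), Epha5 (3.70), Plxna2 (2.66) and Plxna4 (2.64) were at least 2-fold higher than in the other GABAergic nuclei, and Unc5c (0.351) and Ephb1 (0.395), an ephrin receptor gene, at least 2-fold lower. The ligand genes Slit2, Slit3, Sema3c, Sema3e and Ntn1 were also at least 2-fold lower there, with ratios from 0.108 to 0.321. Outside the cluster none of these genes was past 2-fold. Over all genes compared inside the cluster, 2.26% were at least 2-fold higher and 11.0% at least 2-fold lower. Unc5c and Ephb1, 2 of the 16 receptors, thus stood near the latter share. For Epha4 the ratio over all 208 nuclei was 2.93 as a mean over nuclei and 3.04 after thinning.

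Genes of the migration machinery, which build and move the leading process and are active in most young neurons, were more often lower than higher. Of 13, 1 had an interval above 1 (Dcx, which encodes a microtubule protein of migrating neurons, ratio 1.08). For 7 the interval lay below 1, and the median ratio was 0.889. The shares over all genes compared were 16.1% above 1 and 15.8% below 1, with a median ratio of 1.006. Dab1, the adaptor of the reelin pathway, was the lowest at 839 CPM against 1228, a ratio of 0.683, and of 0.248 inside the Lhx6-led cluster, where it alone of the 13 was past 2-fold. Of all genes compared, 11.0% were at least 2-fold lower inside that cluster.

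Slc32a1, the vesicular GABA transporter, had a ratio of 1.05 (0.836 to 1.31), which was 2.15 inside the Lhx6-led cluster and 0.792 outside it. Of 26 GABA and glutamate receptor genes, 21 had an interval below 1 and 1 above 1, the AMPA receptor gene Gria4 (1171 CPM against 951), and the median ratio was 0.773. Over all genes compared the interval lay below 1 for 15.8% and above 1 for 16.1%, with a median ratio of 1.006. Inside the Lhx6-led cluster 2 of the 26, Gria4 and Grik3, were at least 2-fold higher and 8 at least 2-fold lower, with a median of 0.643, and outside it none was past 2-fold. The shares over all genes inside the cluster were 2.26% higher and 11.0% lower. The chloride transporters Slc12a2, which loads immature neurons with chloride, and Slc12a5, which extrudes it in mature ones, had ratios of 0.932 and 0.779. Their ratios were 0.345 and 0.493 inside the Lhx6-led cluster and 1.07 and 0.846 outside it.

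Of 21 markers of adult interneuron types, 7 reached a mean of 20 CPM. Among these 7, 3 had a ratio interval above 1 and 1 below, with a median ratio of 1.06. Npy and Nxph1 were at least 2-fold higher. Over all genes compared, 0.83% were at least 2-fold higher, and the interval lay above 1 for 16.1% and below 1 for 15.8%. Reln, also listed, gave 921 UMIs in 81 nuclei, 321 CPM, and was at least 2-fold lower inside the Lhx6-led cluster. Pvalb and Vip gave 0 UMIs, where 3 UMIs would be 1.05 CPM. Npy, a neuropeptide of several MGE interneuron types, gave 107 UMIs in 52 nuclei, 37.3 CPM (30.6 to 45.1) against 11.1 and a ratio of 3.38 (2.70 to 4.19). The nucleus with most Npy held 24 UMIs, and without it the ratio was 2.73. Sst gave 104 UMIs in 22 nuclei, 44 of them in 1 nucleus, and its level of 36.3 CPM was that of the other GABAergic nuclei (36.6; ratio 0.992, 0.805 to 1.21); without that nucleus the ratio was 0.596. Calb1, a calcium-binding protein gene of many interneurons, had 25.5 CPM against 12.5 (ratio 2.04, 1.57 to 2.61; mean below 20 CPM), and Calb2, typical of caudally derived cells, 6 UMIs and a ratio of 0.249. Nxph1, a neurexin ligand gene known in MGE interneurons, had 1440 CPM against 672, a ratio of 2.14 (2.07 to 2.21), and 3710 CPM inside the Lhx6-led cluster.

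The ranked genes outside the lists included Entpd1, an ectonucleotidase gene, at 68.4 CPM against 25.8 (ratio 2.66), Ripor2 at 307 against 143 (2.16), and Cntnap5c at 128 against 56.6 (2.27). Non-coding transcripts of Sox loci were also among them. Sox1ot had a ratio of 2.89 and Sox2ot of 2.36, with Gm38505, annotated opposite Sox2ot, at 2.56. Among the lower genes were Ptgds, a prostaglandin synthase gene of the meninges and some glia, at 9.42 CPM against 46.4 (ratio 0.203), Il1rapl2 at 41.9 against 125 (0.335) and Gpc5 at 55.5 against 134.8 (0.412).

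Other ranked genes came from a handful of nuclei. Rspo2, a Wnt agonist, had a ratio of 2.86, with 5 nuclei holding 93.5% of its 523 UMIs, a ratio of 1.65 without the nucleus with most UMIs, and 1.83 CPM inside the Lhx6-led cluster. For Rspo3, a related agonist with a ratio of 2.51, 5 nuclei held 80.7% of 456 UMIs. The collagen gene Col1a1 had a ratio of 2.17, and 1 nucleus held 36 of its 111 UMIs. These genes are known from choroid plexus, cortical hem and meninges, and their summed markers were as follows. The 6 meningeal markers were at 173 CPM in the 208 nuclei, 32.9 inside the Lhx6-led cluster and 207 outside it, against 110 in the other GABAergic nuclei. The 5 choroid plexus markers were at 926, 277.5, 1079 and 1432 CPM in the same order. The part of such RNA in the other ratios was not tested.

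Cell cycle genes differed in level by place within the selection. Over all 208 nuclei, 3 of 7 cycle genes at the minimum level were at least 2-fold higher than in the other GABAergic nuclei (Mki67, Cenpf and Bub1) and the median ratio was 1.87. Of all genes compared, 0.83% were at least 2-fold higher, and their median ratio was 1.006. Mki67, a marker of dividing cells, gave 329 UMIs in 72 nuclei and 115 CPM against 55.9, a ratio of 2.05 (1.82 to 2.31). Inside the Lhx6-led cluster its level was 47.5 CPM and its ratio 0.850, that of Top2a was 0.855, and in the 20 nuclei of the Sox1ot cluster its level was 405 CPM. The sum of 14 cycle genes was 413 CPM inside the Lhx6-led cluster, 870 outside it and 477 in the other GABAergic nuclei. Among progenitor genes, Sox2 had a ratio of 1.96 (1.66 to 2.32) and none of 9 reached 2-fold, with a median of 1.28. Inside the Lhx6-led cluster Sox2 was at 2.48 and the median of the 9 was 0.651, against 0.938 over all genes compared. Neuronal maturation genes ran the other way by place: their sum over 14 genes was 38211 CPM inside the Lhx6-led cluster and 19636 outside, largely Nrxn3, a synaptic adhesion gene, at 29313 and 9769 CPM.

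Glutamatergic genes were at the level of the comparison in the whole set. The 11 genes of that list summed to 235 CPM in the 208 nuclei and 244 in the other GABAergic nuclei, and to 124 CPM inside the Lhx6-led cluster against 261 outside. Their sum over the whole library was 303.5 CPM. Neurod6 alone was at 31.4 CPM against 30.6, and at 9.13 inside the Lhx6-led cluster. The 5 oligodendrocyte precursor markers gave no UMI inside that cluster, where 3 UMIs would be 5.48 CPM. The 6 macrophage markers were at 163 CPM against 166, the 6 erythroid markers at 590 against 489 and the 7 endothelial and mural markers at 80.6 against 113.

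**Figure D4:**
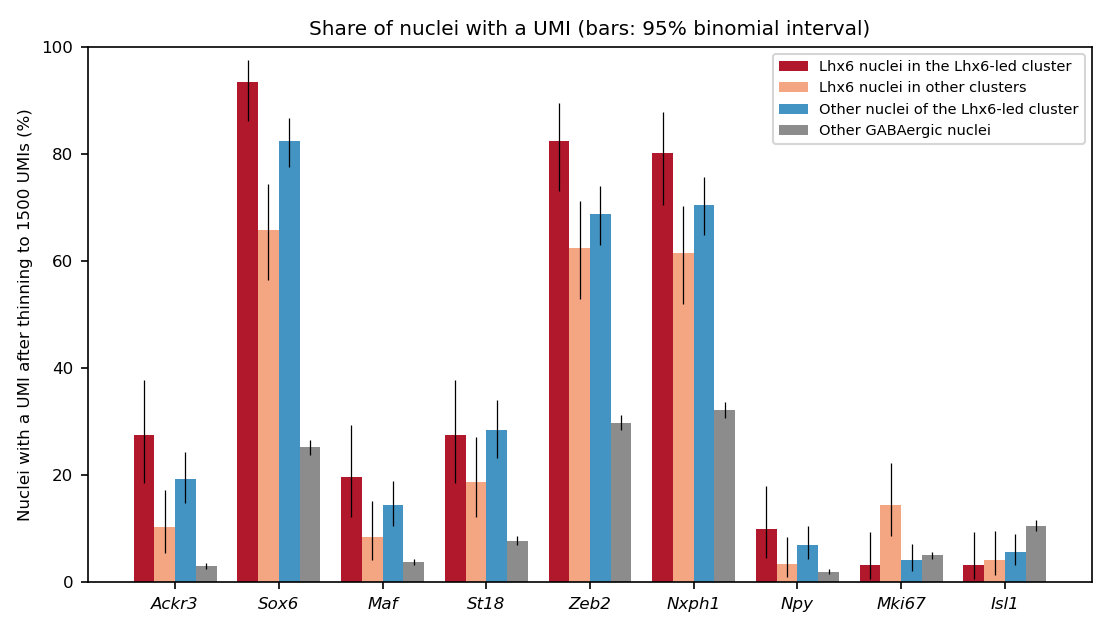
Share of nuclei with a UMI after each was thinned to 1500 UMIs, for Lhx6 nuclei in the Lhx6-led cluster (91), Lhx6 nuclei in other clusters (117), other nuclei of the Lhx6-led cluster (285) and other GABAergic nuclei (4081); lines are 95% binomial intervals. Sox6, Zeb2 and Nxph1 are seen in most nuclei of the first 3 groups, and Mki67 is highest in Lhx6 nuclei of other clusters. Of the 4081 other GABAergic nuclei, 281 lie in the Lhx6-led cluster.

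The Lhx6-led cluster also held nuclei that the selection missed. Of its 376 nuclei with at least 1500 UMIs, 91 (24.2%) were selected, 146 had no Lhx6 UMI, 110 had 1, and 83 had an Lhx8 UMI. The 285 that were not selected had a median of 3392 UMIs, against 4316 for the 91. Of the 4081 other GABAergic nuclei, 281 lay in this cluster, so the comparison group overlaps with these 285. After thinning to 1500 UMIs, Sox6 gave a UMI in 82.5% of these 285 nuclei and in 93.4% of the 91, and Ackr3 in 19.3% (14.9 to 24.4) and 27.5% (18.6 to 37.8), intervals that overlap. In the 117 selected nuclei outside the cluster the shares were 65.8% and 10.3%, and in the other GABAergic nuclei 25.2% and 2.99%. Before thinning, Sox6 was seen in 91.6%, 96.7%, 82.9% and 40.2% of these 4 groups and Ackr3 in 37.9%, 53.8%, 41.0% and 11.3%. Most nuclei just outside the selection were likewise elsewhere: 31.8% of those with 1 Lhx6 UMI and 17.7% of those with Lhx6 and Lhx8 lay in the Lhx6-led cluster, against 39.3%, 47.8% and 51.1% of those selected with 2, 3 and 4 or more UMIs.

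Levels near the threshold are given as a description. Ackr3 was at 60.1 CPM (50.5 to 71.0) in nuclei with 1 Lhx6 UMI, 61.6 with 2, 70.4 with 3 and 126 (103 to 153) with 4 or more, so that the intervals of the first 3 classes overlapped and the last lay above them. Sox6 ran 1091, 1161, 1319 and 2078 CPM over the same classes, and Erbb4 4433, 4808, 4657 and 7084. Maf was at 44.5 CPM (36.2 to 54.0) with 1 UMI and 79.4 (65.1 to 95.9) with 2. The 164 nuclei with both Lhx6 and Lhx8 had 30.7 CPM of Ackr3 (25.7 to 36.4), 36.9 of Maf and 12.5 of Npy, each below the level in nuclei with 2 Lhx6 UMIs and no Lhx8, and they were deeper, with a median of 16291 UMIs.

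**Figure D5:**
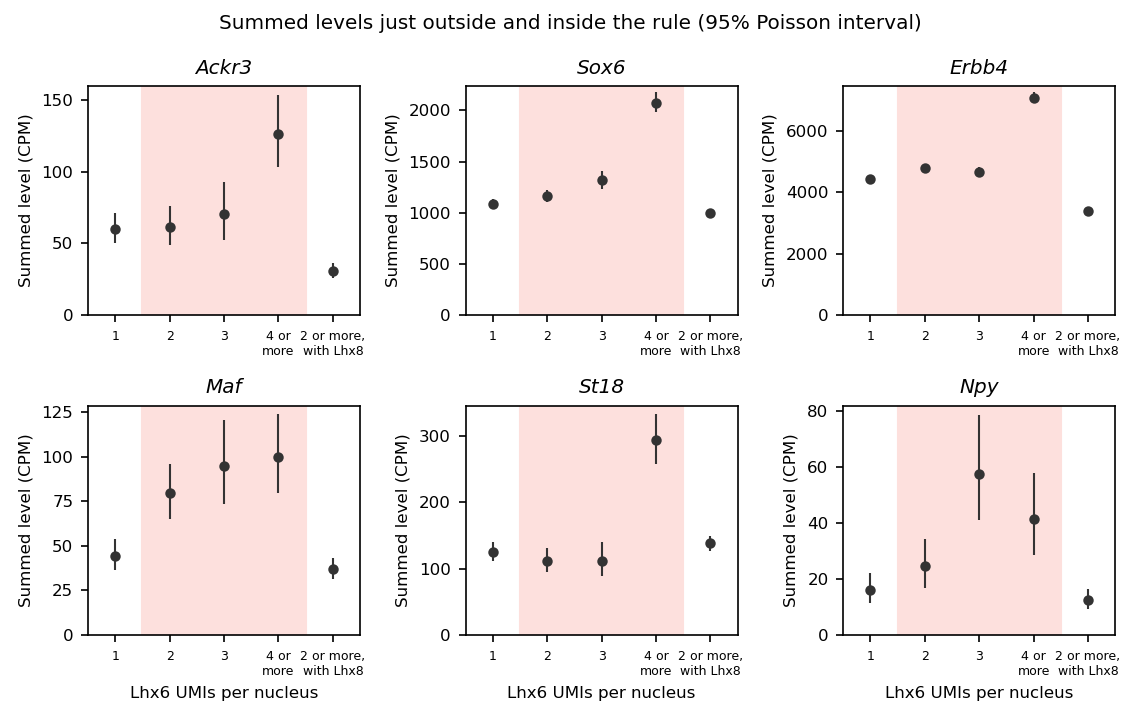
Summed level in CPM of 6 genes by the Lhx6 UMIs of the nucleus, with 95% Poisson intervals; shading marks the selected classes, and the outer points are nuclei with 1 Lhx6 UMI and nuclei with both Lhx6 and Lhx8. Ackr3, Sox6, Erbb4 and St18 are highest with 4 or more UMIs, and Ackr3, Sox6, Erbb4, Maf and Npy are lowest where Lhx8 is present.

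The selected nuclei were then split by single genes, with the median depth beside each split because a gene is seen more often in a deep nucleus. The 97 nuclei with Ackr3 (median 9262 UMIs) had 118 CPM of Maf against 47.1 in the 111 without (6897 UMIs), and 317 CPM of Top2a, a gene of dividing cells, against 137. Their Sox6 was 1540 against 1349 CPM. The 60 nuclei with Nkx2-1 (10331.5 UMIs) had more Top2a than the 148 without (7231 UMIs), 349 against 168 CPM, more Npy, 56.5 against 23.5, and less Nxph1, 1060 against 1715. The 22 nuclei with Sst (13604 UMIs) had less Ackr3 than the 186 without (7659 UMIs), 28.8 against 94.3 CPM, and less Sox6, 826 against 1604.

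The 46 nuclei with Calb1 (12864.5 UMIs) had 48.5 CPM of Ackr3 against 103 in the 162 without (6943.5 UMIs) and 4313 against 6109 CPM of Erbb4. Several of these genes also differed in level with depth. In the shallowest 70 nuclei (median 3100 UMIs), the middle 69 (7914) and the deepest 69 (21478), Ackr3 ran 184, 114 and 62.9 CPM, Sox6 3381, 2065 and 1095, and Erbb4 13235, 7004 and 4163. Mki67 ran the other way, 71.7, 87.6 and 127 CPM. The part of depth in the splits by gene was not tested.

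In the adult hippocampus the same criteria chose 4 of 1661 nuclei, with 100766 UMIs in all, too few for more than raw counts. Lhx6 gave 2 to 4 UMIs in each. Ackr3 gave 1 UMI over the 4 nuclei, 9.92 CPM with an interval from 0.251 to 55.3, against 82.3 CPM in the E14 nuclei. Npy gave between 1 and 37 UMIs in each and Maf between 4 and 24, 486 and 397 CPM, against 37.3 and 89.0 at E14. Pvalb, a marker of fast-spiking interneurons, gave 10 UMIs in 1 of the 4. Sst and Slc12a2 gave no UMI, where 3 UMIs would be 29.8 CPM. Erbb4 gave 168 to 443 UMIs in each nucleus. Age, region and library cannot be told apart in this contrast.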

How the data were processed

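Slide-tags nuclei were counted by the authors with Cell Ranger (6.1.2 in the header of the hippocampus matrix, 7.0.1 in that of the E14 matrix) against mm10, introns included, and the UMI counts were deposited as whole numbers per gene and nucleus. The study's methods name CellBender, which removes background RNA, for the embryo; whether the deposited E14 matrix is its output is not given in the sources used here. Use of strand in counting is not given in the sources used here. The E14 library held 58924407 UMIs in 9037 nuclei of at least 500 UMIs and 32285 genes; the hippocampus library held 15414627 UMIs in 1661 nuclei, and 1 barcode occurred in both.

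From these counts, UMIs were summed over nuclei and given as CPM with exact Poisson intervals; ratios have exact conditional binomial intervals and shares Clopper-Pearson intervals. Intervals cover counting error only. Genes were compared where the mean of the levels of both groups was at least 20 CPM, with no test. A gene could thus be below 20 CPM in 1 of the groups. Nuclei were clustered in Seurat 5.3.0 (R 4.3.3; 2000 variable genes, 30 components, resolution 0.8). Scrublet's automatic threshold marked 4 nuclei, under 0.5% and thus not usable, so the 653 highest scores were marked, at 0.8% per 1000 nuclei; doublets were kept in the main values. Other steps used Python 3.11.15, numpy 2.4.6 and scipy 1.17.1, tested on simulated counts. Gene positions were from GENCODE vM21 (GRCm38), matched by identifier for 319 of 319 named genes. Named genes were those of the 27 lists plus, against each comparison group, the 25 with the highest lower bound and the 15 with the lowest upper bound of the ratio. Genes singled out for the nuclei that carried them were chosen after their values were seen. Members and lists were chosen with earlier results of these data known.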

Additional observations from a re-analysis of the deposited data

How the results depend on the processing

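No paired analysis was possible because each tissue had 1 library and no test was made. Alternatives on the clusters, on single nuclei and on the selection after thinning were chosen after seeing the data.

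The 208 selected nuclei became 460 with at least 1 Lhx6 UMI, 91 with at least 3, 372 with any Lhx8 count and 50 after thinning to 1500 UMIs; other settings gave 175 to 211. The Ackr3 ratio of 4.03 was 2.68 with any Lhx8 count, 4.72 without nuclei of high doublet score, 5.77 as a mean over nuclei, 5.19 after thinning, 10.7 inside the Lhx6-led cluster and 2.45 outside it. The 65 genes at least 2-fold higher became 34 with at least 1 Lhx6 UMI, 18 with any Lhx8 count, 118 as a mean over nuclei, 212 after thinning, 213 inside the Lhx6-led cluster and 35 at a mean of 50 CPM. The minimum level was applied anew in each setting, so the genes compared also differed. Of the 65, 46 were also higher after thinning, 37 inside the Lhx6-led cluster and 33 outside. The 17 lower genes became 4 with at least 1 Lhx6 UMI, 58 with at least 3, 7 with any Lhx8 count, 45 without high doublet scores, 161 as a mean over nuclei, 341 after thinning, 630 inside the Lhx6-led cluster, 7 outside it, 34 at 10 CPM and 5 at 50 CPM.

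At resolution 1.6 the largest group was 57, with 30 more of the 91 in a second cluster. The hippocampus gave 8 nuclei with at least 1 Lhx6 UMI. Ratios turned below 1 for Rspo3 after thinning (0.908) and, inside the Lhx6-led cluster, for Mki67 (0.850), Rspo2 (0.0286), Rspo3 (0.0575) and Col1a1 (0.102). Genes under 2-fold also crossed 1: Adarb2 (1.25 with any Lhx8 count), Top2a inside the Lhx6-led cluster (0.855) and Sst in 3 settings (1.03 to 1.16). Of 492 recomputed values, a tally that leaves out the Ackr3 ratios, 289 stayed within the counting interval and 198 left it. The other 5 were ratios past 2-fold that crossed 1. Sparse genes such as Cxcr4 and Calb2 are limited by depth.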
